A study of Mus musculus with 6 samples.

Results

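Chemokines are small secreted or membrane-held proteins that guide leukocytes through G protein-coupled receptors on their surface. In the small intestine the epithelium itself makes several of them, which place T cells and IgA-producing plasma cells in the mucosa, while others are made by resident lymphocytes and myeloid cells or are switched on by interferon gamma or NF-kB. The 10 chemokine genes described here are Ccl5, Ccl6, Ccl20, Ccl24, Ccl25, Ccl28, Cxcl9, Cxcl10, Cxcl16 and Cx3cl1. They were taken by gene name from the 28752 genes of the table, and were chosen with counts from this same comparison already known, so their differences between groups are given as a description, with no p-value, and support nothing.

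RNA sequencing covered 6 mouse samples, 3 labelled vector with genotype WT and 3 labelled circEZH2_005 overexpression, a circular RNA delivered by adenovirus whose own level was not analysed here. Every sample was grown as organoids from Lgr5+ intestinal stem cells of Lgr5-GFP mice, infected for 72 h, and then exposed to hypoxia/reoxygenation (H/R) with 4 h at 2% O2; no sample kept in normal oxygen was analysed here. The labels describe the virus for circEZH2_005 only, give no age of the mice, and do not say whether samples came from separate animals or cultures, so p-values measure the spread between these samples, which may be technical. Totals lay between 71506487 and 79919893 counts, so that the floor used here, 3 counts, was 0.0377 to 0.0419 CPM (counts made comparable between libraries by their scaled totals), which covers counting error only. The epithelial marker Epcam was at 1323 ± 38.5 CPM in vector and 1481 ± 135 CPM in circEZH2_005 samples (SD, n = 3 each), and the stem cell markers Lgr5 and Olfm4 were present in every sample. The defining T cell marker Cd3e was present in every sample too, with 257, 1234 and 345 counts in vector samples 1 to 3, against 2987, 2379 and 1548 counts in circEZH2_005 samples 1 to 3. Vector sample 2 therefore stood apart from vector samples 1 and 3, and the results that rest on it are given with and without it.

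All 10 chemokines were detected and passed the filter on low counts. Levels between genes were compared as FPKM, which is scaled by transcript length. In vector samples the order was led by Ccl25 with 56.3 ± 3.58 FPKM and Ccl6 with 54.2 ± 7.53 FPKM, followed by Ccl5 with 31.3 ± 28.1, Ccl28 with 22.6 ± 0.54, Cx3cl1 with 18.5 ± 0.74, Ccl20 with 9.57 ± 4.12 and Cxcl16 with 3.14 ± 0.54 FPKM (SD, n = 3 each). Cxcl10 with 0.979 ± 0.76, Cxcl9 with 0.829 ± 0.86 and Ccl24 with 0.0666 ± 0.12 FPKM closed it. The ranges of Ccl25 and Ccl6, of Ccl6 and Ccl5, of Ccl5 and Ccl28, and of Cxcl10 and Cxcl9 overlapped, so these neighbours could not be ordered beyond their spread. In circEZH2_005 samples Ccl5 stood first with 139.9 ± 27.2 FPKM and did not overlap Ccl6, which had 48.8 ± 6.36 FPKM, nor Ccl25, with 43.5 ± 6.13 FPKM. Cx3cl1 with 22.5 ± 3.66 FPKM then came before Ccl28 with 13.5 ± 2.44 FPKM, the reverse of their order in vector samples. Cxcl16, Cxcl10, Ccl24, Cxcl9 and Ccl20 followed, between 4.12 ± 1.43 and 2.03 ± 1.56 FPKM, each overlapping the next.

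**Figure D1:**
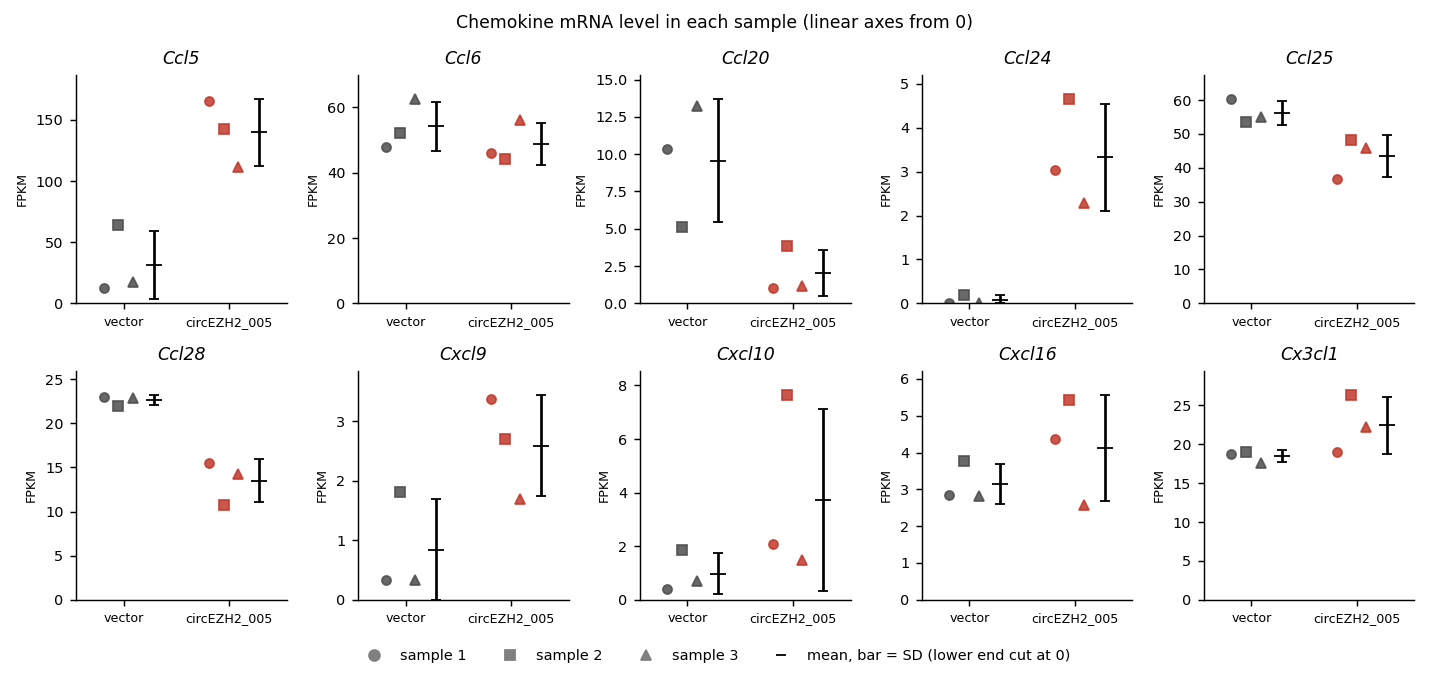
FPKM of each chemokine (linear axes from 0) in the 3 vector samples (grey) and the 3 circEZH2_005 samples (red), with the symbol giving the sample number and the black bar the mean and SD. Ccl5 and Ccl24 of circEZH2_005 samples lie above every vector sample, Ccl20, Ccl25 and Ccl28 lie below, and vector sample 2 is the highest vector sample for Ccl5, Ccl24, Cxcl9 and Cxcl10.

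Together the 10 genes took between 89.3% and 93.4% of the summed FPKM of the 35 chemokine ligands in the table, in every sample. The make-up within that sum differed between samples. Ccl5 took 6.61%, 25.7% and 8.13% of it in vector samples 1 to 3, against 49.9%, 45.0% and 39.8% in circEZH2_005 samples 1 to 3. The share of Ccl25 was 26.1% ± 4.64 with vector and 14.2% ± 2.83 with circEZH2_005, and that of Ccl28 was 10.4% ± 1.46 and 4.37% ± 0.88 (SD, n = 3 each). Since the shares add up, a larger share of Ccl5 by itself lowers the others.

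**Figure D2:**
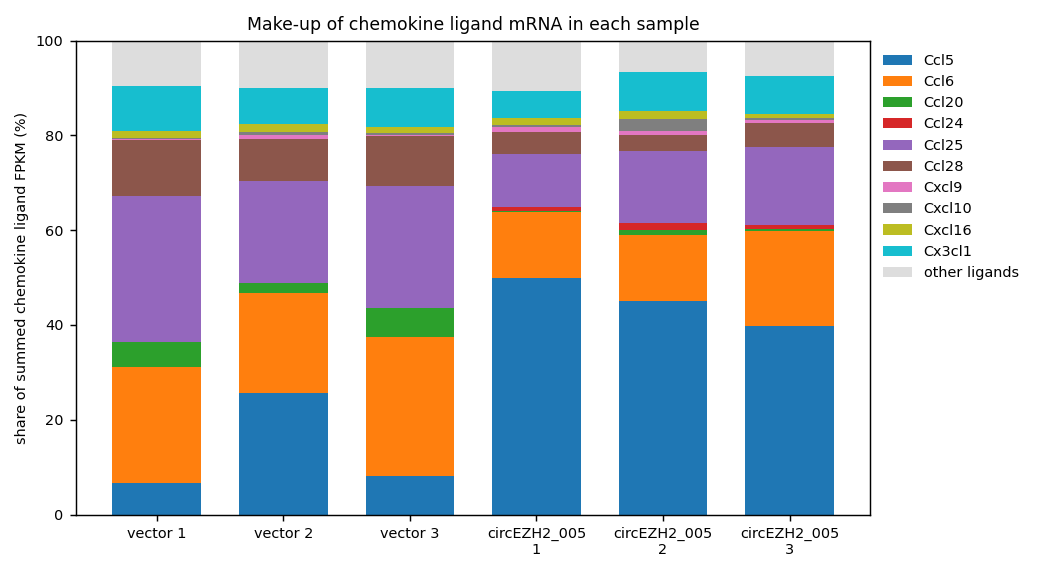
Share of the summed FPKM of 35 chemokine ligands (percent, stacked to 100) taken by each of the 10 chemokines and by all other ligands, in each of the 6 samples. Ccl5 is the largest part in all 3 circEZH2_005 samples, with 39.8% to 49.9%, and reaches 25.7% in vector sample 2.

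Ccl25 and Ccl28 are the homing chemokines of the gut epithelium. Ccl25, the ligand of Ccr9 that draws T cells and plasma cells to the small intestine (ENSMUSG00000023235, chr8:4325210-4360020, plus strand, mm10), had 35677, 31762 and 34572 counts in vector samples 1 to 3, against 23231, 31958 and 28931 in circEZH2_005 samples 1 to 3. In CPM the groups overlapped, since 429.5 in circEZH2_005 sample 2 exceeded 425.1 in vector sample 2, but in FPKM they did not, with 53.5 to 60.3 in vector against 36.6 to 48.1 in circEZH2_005 samples. Its log2 fold change, circEZH2_005 over vector, was -0.27 (standard error 0.15). Ccl28, the ligand of Ccr10 and Ccr3 that attracts IgA-producing cells (ENSMUSG00000074715, chr13:119623819-119654359, plus strand), had 8855, 8503 and 9355 counts in vector samples 1 to 3, against 6396, 4648 and 5818 in circEZH2_005 samples 1 to 3. Every circEZH2_005 sample lay below every vector sample, at 74.7 ± 10.6 CPM against 119 ± 4.33 CPM (SD, n = 3 each). The log2 fold change was -0.67 (standard error 0.11), with values from -0.73 to -0.55 on leaving out any 1 sample, the narrowest such range of any of the 10 chemokines.

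Ccl20, the ligand of Ccr6, is released by the epithelium over lymphoid follicles and by inflamed epithelium, and is a known target of NF-kB (ENSMUSG00000026166, chr1:83116766-83119167, plus strand). It had 1173, 581 and 1589 counts in vector samples 1 to 3, against 131, 486 and 144 in circEZH2_005 samples 1 to 3. The groups did not overlap, but the lowest vector sample and the highest circEZH2_005 sample lay close together, at 7.78 and 6.53 CPM, and both carry the number 2. The log2 fold change was -2.12 (standard error 0.58). It was -2.43 without vector sample 2 and -3.01 without circEZH2_005 sample 2. Samples of the same number shared no known origin.

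Ccl25, Ccl28 and Ccl20 had negative log2 fold changes, while all 10 epithelial markers had positive ones. Of the 10 crypt stem cell markers, 7 had negative ones. Of 10 epithelial markers, 2 rose in edgeR at an adjusted p under 0.05, Krt20 (1.18 on the log2 scale, adjusted p = 0.0207), a keratin of differentiated cells, and Krt8 (0.57, adjusted p = 0.0301), where 3.67% of all genes were called. DESeq2 called 5 of the 10, all higher, where it called 1588 of all genes higher and 701 lower. The epithelial list summed to 3635 to 3705 FPKM with vector and 4516 to 5175 FPKM with circEZH2_005. Of 10 crypt stem cell markers, 2 fell in edgeR, Lgr5 (-0.88, adjusted p = 0.0434) and Smoc2 (-0.81, adjusted p = 0.0203), while 3 of the 10, Axin2, Rnf43 and Cd44, had positive log2 fold changes (0.31, 0.32 and 0.05). DESeq2 called 4 lower, and the edgeR call held in 3 of 12 alternatives for Lgr5 and in 8 for Smoc2. That list summed to 516 to 808 FPKM with vector and 330.1 to 504 FPKM with circEZH2_005, most of it Olfm4, whose groups overlapped. No marker of either list was at 0. The part of these marker differences in the levels of Ccl25, Ccl28 and Ccl20 was not tested.

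Cx3cl1 and Cxcl16 are made with a mucin stalk and a membrane anchor, from which the proteases Adam10 and Adam17 can release them. Cx3cl1, the ligand of Cx3cr1 on gut macrophages (ENSMUSG00000031778, chr8:94772009-94782427, plus strand), had 5879, 5956 and 5856 counts in vector samples 1 to 3, against 6367, 9222 and 7367 in circEZH2_005 samples 1 to 3. In CPM the groups overlapped, because circEZH2_005 sample 1, at 80.1, lay below vector sample 1, at 81.2. The log2 fold change was 0.38 (standard error 0.15). Cxcl16, the ligand of Cxcr6 on T and NK cells (ENSMUSG00000018920, chr11:70453983-70459984, minus strand), had 684, 910 and 720 counts in vector samples 1 to 3, against 1125, 1461 and 660 in circEZH2_005 samples 1 to 3. The lowest and the highest circEZH2_005 sample enclosed nearly the whole vector range, and the log2 fold change was 0.48 (standard error 0.27). Without circEZH2_005 sample 2 it was 0.18.

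Cxcl9 and Cxcl10 are ligands of Cxcr3, the receptor of activated T and NK cells, and both are known targets of interferon gamma. They are neighbours on chromosome 5, with Cxcl11 next to them. Cxcl9 (ENSMUSG00000029417, chr5:92321347-92328079, minus strand) had 81, 439 and 86 counts in vector samples 1 to 3, against 867, 730 and 432 in circEZH2_005 samples 1 to 3. Vector sample 2 and circEZH2_005 sample 3 were nearly level, at 5.88 and 6.03 CPM, and on the FPKM scale their order was the reverse, at 1.82 and 1.69 FPKM. Cxcl10 (ENSMUSG00000034855, chr5:92346638-92348882, minus strand) had 71, 333 and 135 counts in vector samples 1 to 3, against 400, 1534 and 281 in circEZH2_005 samples 1 to 3. Its groups overlapped, and circEZH2_005 sample 2 alone, at 20.6 CPM, was 5.26 times the lowest sample of its own group.

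The log2 fold change was 1.72 (standard error 0.65) for Cxcl9 and 2.04 (standard error 0.76) for Cxcl10. Without vector sample 2 it was 3.01 for Cxcl9 and 2.86 for Cxcl10, and without circEZH2_005 sample 2 it was 1.65 and 0.91. Leaving out vector sample 2 thus moved Cxcl9 most, and leaving out circEZH2_005 sample 2 moved Cxcl10 most. Cxcl11, the gene beside them, had 270, 274 and 348 counts in vector samples 1 to 3, against 342, 774 and 405 in circEZH2_005 samples 1 to 3, with circEZH2_005 sample 2 again the highest.

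Because interferon and NF-kB are the known switches of these genes, the RefSeq promoter windows (GRCm38.p6, 250 bases before to 50 after a start) were searched on both strands for 4 motifs. Windows were found for 7 of the 10 genes, 8 windows in all, and not for Ccl5, Ccl24 and Cxcl16. The interferon-stimulated response element core (GAAA, any 2 bases, GAAA) occurred in 3.44% of all 32851 windows and, among the chemokines, in that of Cxcl10. The kB motif occurred in 8.46% of all windows, and in those of Cxcl10 (3 matches, of which 2 overlap) and Ccl20 (1 match). The AP-1 motif TGANTCA occurred in 7.81% of all windows, and in those of Cxcl10, Cxcl9 and Ccl28; in Cxcl9 and Ccl28 it lay after the start. The gamma-activated site TTCNNNGAA, in 8.30% of all windows, was in none of the 8. The matches of Cxcl10 and Ccl20 before the start are shown, each read along the gene's strand with the motif in capitals. They lie at chr5:92349083-92349112, chr5:92349029-92349058, chr5:92348973-92349002, chr5:92348944-92348973 and chr1:83116676-83116705 in this order, 213, 159, 104, 74 and 80 bases before the start.
Cxcl10 interferon-stimulated response element core: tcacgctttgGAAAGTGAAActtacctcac
Cxcl10 kB motif: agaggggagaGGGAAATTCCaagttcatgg
Cxcl10 overlapping kB motifs: cggtttacaGGGGACTTCCCtcgggttgcg
Cxcl10 AP-1 motif: ggagccttgcTGAGTCAtctccaaagtcag
Ccl20 kB motif, on the other strand: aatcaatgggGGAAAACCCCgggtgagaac
Both genes thus carry a kB match. The log2 fold change was 2.04 for Cxcl10, whose groups overlapped, and -2.12 for Ccl20, and the part of NF-kB in either was not tested. A match describes the letters of a window and not the binding of a factor.

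Ccl5, which cytotoxic T cells and NK cells make in quantity, binds receptors that include Ccr1 and Ccr3 (ENSMUSG00000035042, chr11:83525778-83530518, minus strand). It had 985, 4879 and 1411 counts in vector samples 1 to 3, against 13562, 12224 and 9045 in circEZH2_005 samples 1 to 3. Every circEZH2_005 sample lay above every vector sample, at 154 ± 24.0 CPM against 32.3 ± 28.7 CPM (SD, n = 3 each). The log2 fold change was 2.25 (standard error 0.55), and it was 3.28 without vector sample 2, whose 65.3 CPM were 4.13 times the mean of vector samples 1 and 3.

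Markers of T and NK cells moved with Ccl5. All 13 markers listed (Cd3d, Cd3e, Cd3g, Cd247, Cd8a, Cd4, Cd2, Lck, Zap70, Nkg7, Gzma, Gzmb and Il7r) had every circEZH2_005 sample above every vector sample, where 16.4% of all genes tested did, and none was at 0. Their summed level was 94.8, 391 and 114 FPKM in vector samples 1 to 3, against 1109.6, 744 and 546 FPKM in circEZH2_005 samples 1 to 3. Most of the sum was Gzma and Gzmb in every sample, so dividing by it sets Ccl5 mainly against these genes. They were at 53.8 and 23.1 FPKM in vector sample 1, and at 622 and 353 FPKM in circEZH2_005 sample 1. Divided by this sum, Ccl5 was 0.136, 0.163 and 0.153 in vector samples 1 to 3, against 0.149, 0.192 and 0.204 in circEZH2_005 samples 1 to 3. The sum thus spanned the same order of samples as Ccl5 from lowest to highest, and the ratio of the groups overlapped. In bulk samples more cells of a type and more RNA per cell cannot be told apart, and the part of T cell RNA in the Ccl5 difference was not tested. Per the study's methods the Lgr5-GFP+ starting cells were sorted by flow cytometry. Whether T cells remained in these cultures was not tested. Of the 13 markers, 0 passed an adjusted p-value of 0.05 by edgeR, with values between 0.0570 and 0.124, and 13 had an unadjusted p under 0.05, where 23.7% of all genes did. DESeq2 called 9 of the 13, limma on log2(FPKM + 1) called 2, and edgeR without vector sample 2 called all 13. Over all genes these fits called 1588, 371 and 1098 higher, in this order.

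**Figure D3:**
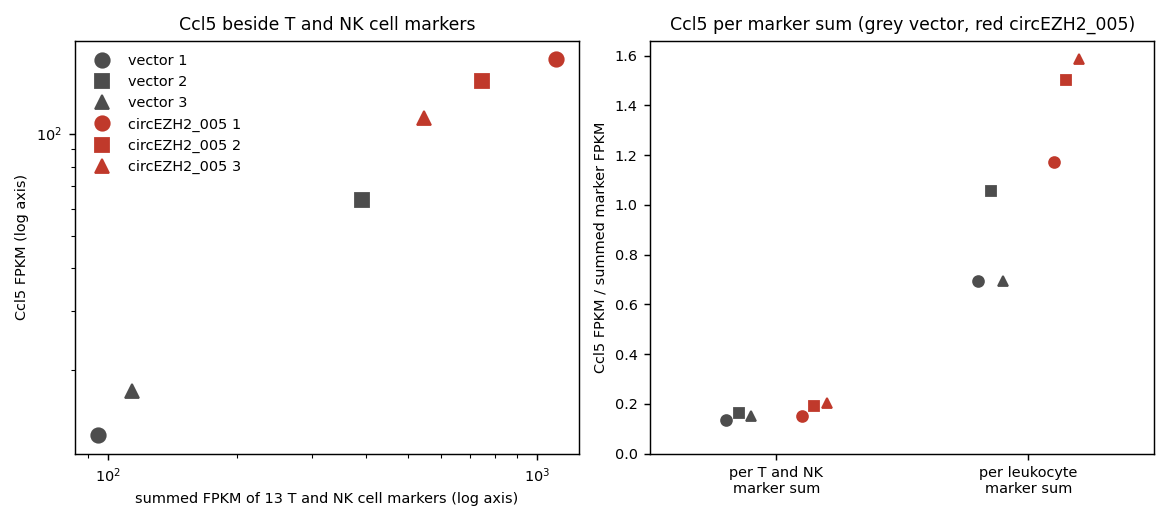
Left, Ccl5 FPKM against the summed FPKM of 13 T and NK cell markers in each of the 6 samples (both axes logarithmic). Right, Ccl5 FPKM divided by that sum and by the sum of 10 general leukocyte markers (linear axis from 0), where the first ratio stays between 0.136 and 0.204 in all samples. Most of the T and NK cell marker sum is Gzma and Gzmb.

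A wider list of 10 leukocyte markers, such as Ptprc and Coro1a, behaved alike. All 10 had every circEZH2_005 sample above every vector sample, where 16.4% of all genes tested did. In edgeR 0 of them passed the adjustment, and 10 had an unadjusted p under 0.05, where 23.7% of all genes did. DESeq2 called 8 and limma on log2(FPKM + 1) called 1. Called by edgeR were 10 without vector sample 2, and 0 with the sample number as a block. The list summed to 18.6 to 60.5 FPKM with vector and 70.2 to 141 FPKM with circEZH2_005. Ccl5 divided by this sum lay between 0.694 and 1.054 in vector and between 1.17 and 1.59 in circEZH2_005 samples, so on this ratio, unlike that to the T and NK cell sum, the groups did not overlap. Cxcl9 divided by it lay between 0.0133 and 0.0301 in vector and between 0.0238 and 0.0285 in circEZH2_005 samples, so the groups overlapped. Macrophage and dendritic cell markers summed to 18.9 to 27.5 FPKM with vector and 20.3 to 37.8 FPKM with circEZH2_005, and those of B and plasma cells to 4.06 to 6.86 against 6.33 to 26.4 FPKM. Both pairs of ranges overlapped. In edgeR, 1 of 14 macrophage and dendritic cell markers passed the adjustment, where 3.67% of all genes did. This was Itgax, higher by 1.86 on the log2 scale (adjusted p = 0.0362 in edgeR). How much of the Cxcl9 difference goes with leukocyte RNA was not tested.

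Ccl24, also named eotaxin-2, attracts eosinophils through Ccr3 (ENSMUSG00000004814, chr5:135569937-135573049, minus strand). It had 0, 21 and 0 counts in vector samples 1 to 3, against 337, 538 and 251 in circEZH2_005 samples 1 to 3. The mean of circEZH2_005 samples, 4.99 CPM, was 17.8 times the value of vector sample 2. The lowest circEZH2_005 sample, at 3.50 CPM, was at least 84.6-fold higher than vector samples 1 and 3, set at the floor of 3 counts per library. The log2 fold change was 5.71 (standard error 1.08). Divided by the leukocyte marker sum, the groups of Ccl24 did not overlap, at up to 0.0033 with vector and between 0.0215 and 0.0490 with circEZH2_005. Of 7 eosinophil markers 4 had values. They summed to 0.914 to 1.23 FPKM with vector and 0.922 to 1.20 FPKM with circEZH2_005, most of it Siglecf in every sample. Of the 2 tested in edgeR, 0 passed the adjustment or had an unadjusted p under 0.05. DESeq2 and limma each gave a value for 1 of the 2 and called 0.

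Ccl6, a chemokine known from mouse myeloid cells that acts through Ccr1 (ENSMUSG00000018927, chr11:83587882-83593087, minus strand), had the log2 fold change nearest to 0 of the 10. Its mean with vector was 54.2 FPKM, where the 14 macrophage and dendritic cell markers summed to 18.9 to 27.5 FPKM. Its cell source was not tested. It had 6840, 7449 and 9478 counts in vector samples 1 to 3, against 7069, 7085 and 8509 in circEZH2_005 samples 1 to 3, with 105 ± 14.1 CPM against 101 ± 15.7 CPM (SD, n = 3 each). Its log2 fold change was -0.06 (standard error 0.14), and 2 of 12 alternatives gave the other sign. It lies in a row with Ccl5, Ccl9, Ccl3 and Ccl4 on chromosome 11, and these neighbours differed. Ccl3 and Ccl4, known from T and NK cells, had log2 fold changes of 2.69 (standard error 0.61) and 2.25 (standard error 0.84), and Ccl9 one of -0.75. The Ccl4 groups overlapped. In edgeR the adjusted p was 0.0557 for Ccl3, 0.159 for Ccl4 and 0.0508 for Ccl9. Ccl6, Ccl25, Cxcl10 and Cxcl16 have exons that overlap a gene on the other strand (E230016K23Rik, Elavl1, Art3 and Zmynd15), and no source says that counting used strand, so reads could be shared.

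**Figure D4:**
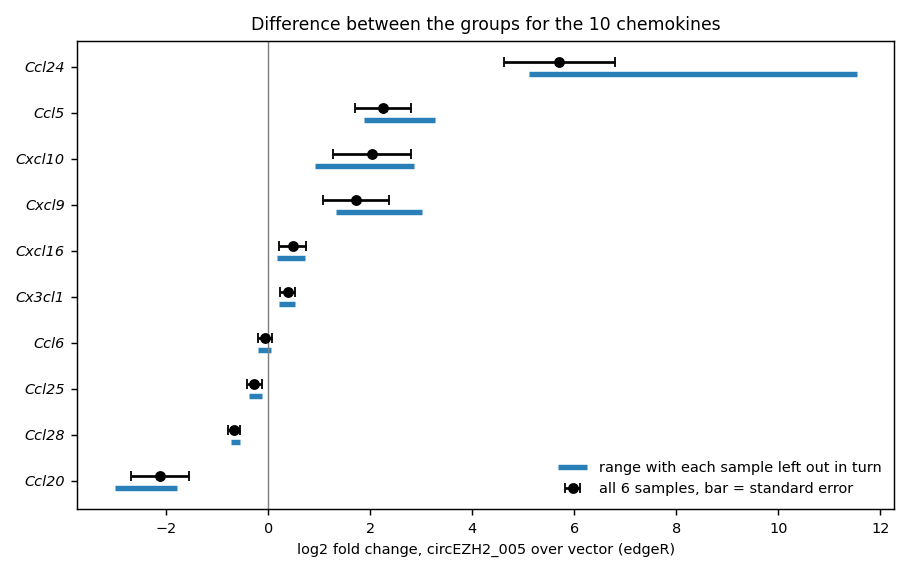
Log2 fold change of each chemokine, circEZH2_005 over vector, from edgeR (points, bar = standard error), with the range when each of the 6 samples is left out in turn (blue). Only the range of Ccl6 crosses 0. Ccl24, Ccl5, Cxcl10, Cxcl9, Cxcl16 and Cx3cl1 lie to the right of 0 and Ccl20, Ccl28 and Ccl25 to the left in every case. The right end of Ccl24, 11.55, comes from a vector group with 0 counts only and is no measured size.

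Across the 10 chemokines, 6 had a positive and 4 a negative log2 fold change, with a median of 0.43 beside 0.00 over all genes tested. By edgeR with an adjusted p under 0.05, Ccl24 was called higher and Ccl28 lower, 2 of 10 genes, where 3.67% of the 18348 genes tested passed (2.69% higher and 0.986% lower). In CPM, the groups did not overlap for 5 genes, Ccl5, Ccl24 and Cxcl9 above and Ccl20 and Ccl28 below, where 30.6% of all genes did not. The calls varied with the setting. DESeq2 also called Ccl5 and Ccl20, and the replicate block called Ccl24 and Cxcl10 but not Ccl28. Without vector sample 2, Ccl5, Ccl24 and Cxcl9 were called higher and Ccl20 and Ccl28 lower. Without circEZH2_005 sample 1, Cx3cl1 was called higher and Ccl28 lower, but not Ccl24. None of the 10 was called with no filter on low counts or without vector sample 1, vector sample 3, circEZH2_005 sample 2 or circEZH2_005 sample 3. Nothing is read from these counts, since the genes were picked with this comparison in view. In 9 of the 10, all but Cx3cl1, vector sample 2 was the vector sample nearest to the mean of circEZH2_005 samples. The share of all genes for which this holds was not counted, so it is not read as a trait of these genes.

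The receptors of these chemokines are their counterpart. Their list, like the other gene lists, was chosen with earlier results of these data known, so its counts and p-values are a description. Of 8 receptors (Ccr1, Ccr3, Ccr6, Ccr9, Ccr10, Cxcr3, Cxcr6 and Cx3cr1), 0 passed an adjusted p-value of 0.05 in edgeR, where 3.67% of all genes did. In edgeR 3 had an unadjusted p under 0.05, all higher with circEZH2_005, where 23.7% of all genes had one. DESeq2 called Ccr9 and Cxcr6 of the 6 it gave a value, and limma called 0 of 3. Over all genes DESeq2 called 1588 higher and 701 lower, and limma on log2(FPKM + 1) called 371 and 364. Their median log2 fold change was 1.17, beside 0.00 over all genes, and 7 of 8 were positive. Ccr9, the receptor of Ccl25, had 276, 768 and 398 counts in vector samples 1 to 3, against 2066, 1379 and 1075 in circEZH2_005 samples 1 to 3, with no overlap of the groups. It differed by 1.63 on the log2 scale (standard error 0.38), for which edgeR's adjusted p was 0.0573, and this p lay between 2.56e-05 and 0.194 over 12 alternatives. Its ligand Ccl25 was at -0.27, so ligand and receptor did not share a direction.

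Cxcr6, the receptor of Cxcl16, had 91, 316 and 78 counts with vector and 677, 433 and 376 with circEZH2_005, which differ by 1.59 on the log2 scale (standard error 0.54), with adjusted p = 0.127 in edgeR. Cxcr3, the receptor of Cxcl9 and Cxcl10, had 58, 214 and 124 counts with vector and 401, 284 and 165 with circEZH2_005, and the groups overlapped (1.09 on the log2 scale, adjusted p = 0.220 in edgeR). Ccr9, Cxcr6 and Cxcr3 are known from T cells, whose marker sums are given above; their part in the receptor levels was not tested. Without vector sample 2, Ccr9 and Cxcr6 passed the adjustment.

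The other receptors were scarce. Ccr1 had 31, 62 and 61 counts with vector and 130, 58 and 64 with circEZH2_005. Cx3cr1 had 70, 59 and 35 counts with vector and 126, 46 and 46 with circEZH2_005, and Ccr10, a receptor of Ccl28, had 47, 8 and 8 against 29, 16 and 8. These groups overlapped. Ccr3, the receptor of Ccl24, had 8, 4 and 0 counts with vector and 25, 26 and 19 with circEZH2_005, and Ccr6, the receptor of Ccl20, had 0, 14 and 10 against 17, 21 and 19. Both did not overlap, and neither passed the adjustment (adjusted p = 0.175 and 0.504 by edgeR). Of 15 other chemokine receptors, 7 were tested and 0 passed in edgeR, with 1 unadjusted p under 0.05, where 23.7% of all genes had one. DESeq2 (of 6 with a value) and limma (of 1) made 1 call each, in both cases Ccrl2, which binds chemerin and passes no chemokine signal. It went from 217, 449 and 162 to 805, 1223 and 686 counts, or 1.71 on the log2 scale, with an adjusted p of 0.0604 in edgeR.

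**Figure D5:**
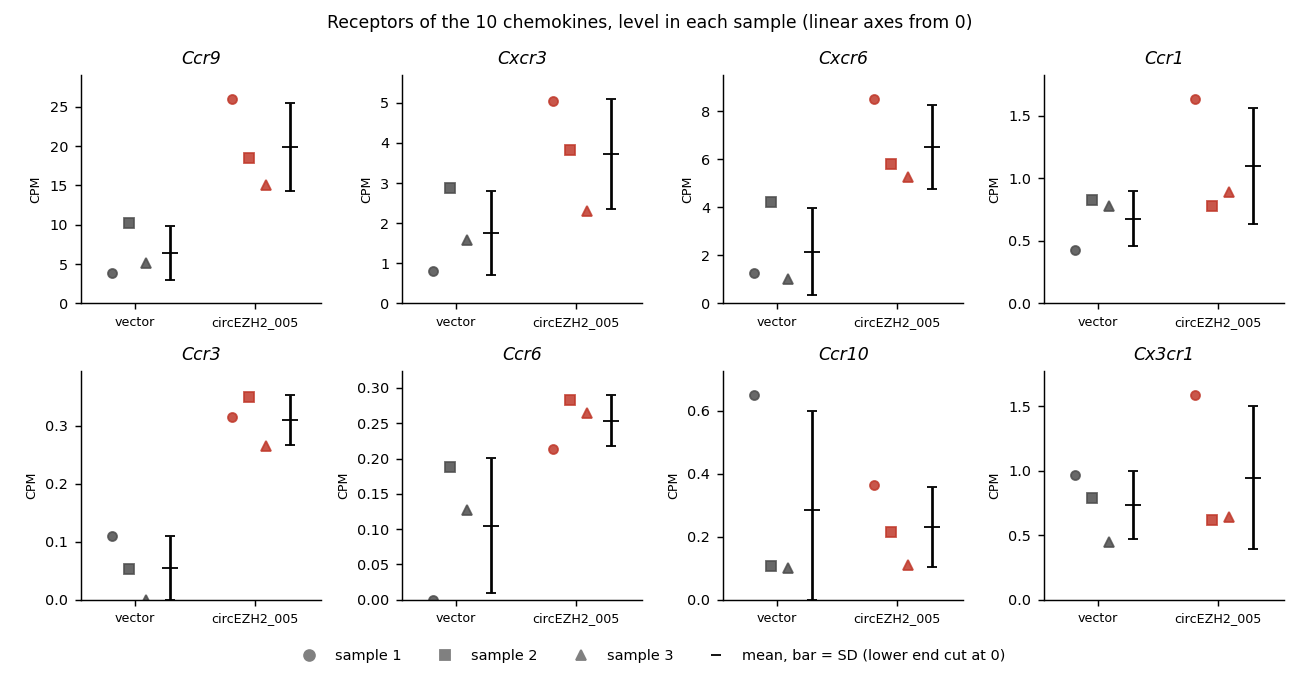
CPM of the 8 receptors (linear axes from 0) in the 3 vector samples (grey) and 3 circEZH2_005 samples (red), with the symbol giving the sample number and the black bar the mean and SD. Vector sample 2 is the highest vector sample for Ccr9, Cxcr3 and Cxcr6, and circEZH2_005 sample 1 is the highest of all 6.

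Among 30 other chemokine ligands, 25 were in the table and 14 were tested. In edgeR 0 passed the adjustment, where 3.67% of all genes did. An unadjusted p under 0.05 was found in edgeR for 6 (4 higher and 2 lower), where 23.7% of all genes had one. DESeq2 called Ccl3 and Xcl1 higher and Ccl9 lower of 8 with a value, and limma called Xcl1 higher and Ccl9 lower of 6. Their median log2 fold change was 0.79. Ccl9, a neighbour and close relative of Ccl6, had 3554, 3893 and 4129 counts with vector and 2471, 1729 and 2681 with circEZH2_005, so every circEZH2_005 sample was below every vector sample (-0.75 on the log2 scale, standard error 0.16), and the adjusted p was 0.0508 in edgeR. The neutrophil-attracting ligands had few counts in both groups, with 18, 22 and 23 counts of Cxcl1 with vector and 9, 0 and 4 with circEZH2_005, and 22, 42 and 12 counts of Cxcl2 with vector and 12, 13 and 8 with circEZH2_005. Every circEZH2_005 sample was below every vector sample for Cxcl1 (-2.26 on the log2 scale, adjusted p = 0.208 in edgeR), and the Cxcl2 groups overlapped.

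In the interferon gamma pathway, 2 of 11 genes passed the adjusted p-value of 0.05 in edgeR, both higher, where 3.67% of all genes did (2.69% higher). Unadjusted, 8 had a p under 0.05 higher and 1 lower in edgeR, where 23.7% of all genes had one in either direction. DESeq2 called 4 higher (Irf1, Irf8, Irf9 and Jak2), and limma called 3 higher (Irf1, Irf8 and Socs1). Irf1, a transcription factor induced by interferon gamma, had 203 ± 66.6 CPM with vector and 434 ± 65.9 CPM with circEZH2_005 (SD, n = 3 each). That is 1.10 on the log2 scale (standard error 0.23), and edgeR gave an adjusted p of 0.0472. Irf8, its relative in lymphoid and myeloid cells, had 142 ± 30.2 and 295.5 ± 46.1 CPM, or 1.06 on the log2 scale (standard error 0.17), with an adjusted p of 0.0286 in edgeR. Over 12 alternatives the adjusted p of Irf1 was under 0.05 in 6 and that of Irf8 in 7. The cytokine gene Ifng itself had 14, 87 and 8 counts in vector samples 1 to 3, against 386, 297 and 79 in circEZH2_005 samples 1 to 3; vector sample 2 was above circEZH2_005 sample 3, as for Cxcl10, and edgeR gave an adjusted p of 0.122 to the log2 difference of 2.77. The median log2 fold change of the 11 genes was 0.51.

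In the NF-kB and IL-17 pathway, 0 of 20 genes tested passed in edgeR. Of these, 8 had an unadjusted p under 0.05 in edgeR (6 higher and 2 lower), where 23.7% of all genes had one. DESeq2 called Myd88 and Rela higher and Tnf lower of 19 with a value, where it called 1588 of all genes higher and 701 lower. The limma fit called 0 of 16. Tnf, an inducer of Ccl20, was at 5.17 ± 1.64 CPM with vector and 2.41 ± 0.50 CPM with circEZH2_005 (SD, n = 3 each), without overlap (-1.10 on the log2 scale, adjusted p = 0.0674 in edgeR). Il17a was at 0 in all vector samples, had 4, 0 and 0 counts in circEZH2_005 samples 1 to 3, and was not tested. The proteases that can release or trim chemokines did not pass in edgeR either, 0 of 5. In edgeR 1 had an unadjusted p under 0.05, near the 23.7% share of all genes. DESeq2 called that one, Mmp7, and limma called 0 of 4. Adam10 was at 188 ± 5.94 and 191 ± 7.37 CPM and Adam17 at 53.0 ± 3.27 and 50.2 ± 3.11 CPM (SD, n = 3 each) with vector and circEZH2_005.

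The pattern over the 6 samples was compared with that of 10227 other protein-coding genes whose mean reached 1 FPKM, as a description, since all genes share the same libraries. The genes most like Ccl5 were Cd96, a receptor of T and NK cells, Gbp4 and Apol7e (Pearson's r of log2 CPM 0.9994, 0.9992 and 0.9987, n = 6), and those most like Cxcl9 were Art2b, Gbp3 and Gpr132. Those most like Ccl24 were Ubd and Ido1, both known targets of interferon gamma, and Pla2g4c; Ubd had a mean of 42.4 CPM with vector and 413 CPM with circEZH2_005, and Ido1 of 6.72 and 103 CPM. Those most like Cxcl10 were Chd1, Casp4 and Tmem184b, and those most like Ccl20 were Tmprss4, 4931414P19Rik and Zdhhc23. For Ccl28 they were Fam162a, Epn3 and Taf15, and for Cx3cl1 they were Mtmr4, Arhgap26 and Ttc39c. For Ccl25 they were Tmem98, Sfxn1 and Ly6g2, for Cxcl16 Usf1, Nudt13 and Odf2l, and for Ccl6 Srp54c, Pwwp3a and Zfp85. At r over 0.95 there were 360 such genes for Ccl5, 378 for Ccl24, 337 for Cxcl9, 274 for Cx3cl1, 234 for Ccl28, 62 for Ccl25, 40 for Ccl20, 31 for Cxcl10, 14 for Cxcl16 and 2 for Ccl6. With 6 samples in 2 groups such values come easily, so the counts rank how common each pattern was and no more.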

How the data were processed

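The authors deposited 1 table with raw counts of reads per gene and FPKM values for 6 samples. Per the labels, the processing notes name mm10, cutadapt 1.9, HISAT2 2.0.4, StringTie 1.3.4d and DESeq2, without roles; the annotation, the strand setting and any filter are not given in the sources used here. Columns named NC were taken as vector, the only control group. Of 28752 identifiers, 28678 were in GENCODE M21 (GRCm38) and 28527 had the same start. The members and gene lists were chosen with earlier results of these data known. Counts were filtered with filterByExpr, scaled with TMM and tested by quasi-likelihood in edgeR 4.0.16 (R 4.3.3), with Benjamini-Hochberg adjustment over 18348 genes; the standard error was taken as the log2 change over the root of its F statistic. The alternatives were median-of-ratios scaling, no filter, DESeq2 1.42.0, limma 3.58.1 on log2(FPKM + 1) or log2(FPKM + 0.1) for genes whose mean reached 0.5 FPKM, a replicate block, each sample left out, and a fold change over 2 or under 0.5 with an unadjusted p under 0.05. Fits were tested on simulated data. Some genes of the receptor and pathway lists are not reported here, and the lists were counted without them. Named genes were the members, their receptors, up to 3 called genes of each list, uncalled partners of a member, and for each member the 3 genes most like it; Ccl9, Cxcl11, Cxcl1, Cxcl2, Ccl3, Ccl4, Ccrl2 and Mmp7 were added after their values were seen. No pair of samples was 1 library, as at most 1.25% of genes had equal counts.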

Additional observations from a re-analysis of the deposited data

How the results depend on the processing

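Over all genes, edgeR called 493 higher and 181 lower. They were 132 and 37 with no filter on low counts, 1588 and 701 in DESeq2, 371 and 364 in limma on log2(FPKM + 1), 323 and 319 in limma on log2(FPKM + 0.1), and 1142 and 246 for a fold change over 2 or under 0.5 with an unadjusted p. On leaving out 1 sample they ran from 26 to 1098 higher and from 2 to 334 lower, the top of each without vector sample 2. Of the receptors 0 were called higher, against 3 in DESeq2, 1 in limma on log2(FPKM + 1), 4 by fold change with an unadjusted p, and 0 to 3 with a sample left out. Of the other ligands 0 were called either way, against 2 higher and 1 lower in DESeq2, 1 higher and 1 lower in limma on log2(FPKM + 1), 1 lower in limma on log2(FPKM + 0.1), 3 higher and 1 lower by fold change with an unadjusted p, and 0 to 2 higher with a sample left out. Of the pathway and cleavage genes 2 were called higher and 0 lower, against 0 higher with no filter, 6 higher and 2 lower in DESeq2, 5 higher and 1 lower by fold change with an unadjusted p, and 0 to 8 higher and 0 to 1 lower with a sample left out. The cause was not tested. Among the chemokines, 9 of 10 log2 fold changes kept their sign in all 12 alternatives, and Ccl6 did not in 2. Ccl24 was at 1.99 in limma on log2(FPKM + 1), whose pseudocount shrinks low values. Deviations of same-numbered samples correlated at -0.14, -0.02 and 0.04, so no pairing by sample number was seen. From 3 samples a group these values cannot exclude a shared origin of such samples. With a replicate block 241 genes were called higher and 36 lower, with 1 receptor, 3 pathway genes and 0 other ligands higher. The log2 fold change was then 2.60 for Ccl5 and -2.35 for Ccl20. With 3 samples a group, counts under about 20 such as those of Ccr3, Ccr6 and Ccr10 limit what can be told.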
